A study of Arabidopsis thaliana with 82 samples.

Results

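The Aux/IAA repressors and the auxin-conjugating GH3 enzymes of Arabidopsis thaliana were followed through hypocotyl grafting and cutting. The members were taken by gene identifier: 29 Aux/IAA genes (IAA1 to IAA20 and IAA26 to IAA34) and 6 GH3 genes (GH3.1 to GH3.6), 35 of the 27416 genes listed. IAA15 and GH3.4 stayed near the detection limit, with at most 0.243 and 0.162 in any library on the scaled level used here, and 33 members were tested. The scaled level is the authors' library-normalised value multiplied by 1 constant that sets the median library total to 1 M (1e6); where depth could be estimated, a level of 1 stood for 5.78 to 22.0 reads.

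Auxin signals by removing its own repressors. Aux/IAA proteins hold ARF transcription factors inactive through a co-repressor, and auxin glues them to the receptor TIR1 or its relatives, which mark them for degradation. Many Aux/IAA genes are themselves targets of the freed ARFs, so the repressor is made again in the tissue that has just responded. GH3 enzymes of this group join auxin to amino acids and so lower the free hormone; several are among the classic auxin-induced genes. IAA20 and IAA30 to IAA34 lack all or part of the degradation motif and tend to be longer-lived. From textbook knowledge, 19 members were put in an auxin-induced class (IAA1 to IAA6, IAA11, IAA13, IAA14, IAA19, IAA20, IAA29, IAA30 and GH3.1 to GH3.6, of which 18 were tested). The remaining 16 members, 15 of them tested, form the class called here not auxin-induced.

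All plants were Col-0 seedlings, 7 days old at cutting, on MS medium with agar and no sucrose, and all, intact controls included, had lost 1 cotyledon. The hypocotyl was cut across, and RNA came from hypocotyl tissue of 5 conditions: the top and the bottom of grafted plants (a top and a bottom of different seedlings put together), the top and the bottom of cut plants left apart, and uncut plants. Each was sampled at 6, 12, 24, 48, 72, 120, 168 and 240 h, and uncut plants also at 0 h, giving 41 groups of 2 libraries that the labels call independent biological replicates. The separated top kept its shoot and had no root; the separated bottom kept its root and had no shoot. Libraries were fitted together with limma on log2(level + 1), with Benjamini-Hochberg adjustment over 20766 genes and an adjusted p of 0.05 as the threshold; every difference below is on that scale, which understates changes at low levels. The windows compared were early (6, 12 and 24 h, 6 libraries a side), middle (48 and 72 h, 4 a side) and late (120, 168 and 240 h, 6 a side). In these bulk samples fewer cells of a type and less RNA per cell cannot be told apart.

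The stretch of 300 bases before each gene's annotated start is shown for 6 members whose courses are followed below. In these sequences, from the TAIR10.1 reference and read 5′ to 3′ on the gene's strand, capitals mark TGTCTC or TGTCGG on either strand (GAGACA or CCGACA when read on the other), the hexamers known as auxin response elements. The first 4 belong to members of the auxin-induced class that hold at least 1 such hexamer; IAA14, of the same class, and IAA28, of the other, hold none in this window. The stretches are chr1:5366498-5366797 on the minus strand for IAA5 (AT1G15580), chr3:5263701-5264000 on the plus strand for IAA19 (AT3G15540), chr4:8360696-8360995 on the plus strand for IAA1 (AT4G14560), chr2:9866563-9866862 on the minus strand for GH3.3 (AT2G23170), chr4:8350264-8350563 on the minus strand for IAA14 (AT4G14550) and chr5:9032904-9033203 on the plus strand for IAA28 (AT5G25890).
IAA5: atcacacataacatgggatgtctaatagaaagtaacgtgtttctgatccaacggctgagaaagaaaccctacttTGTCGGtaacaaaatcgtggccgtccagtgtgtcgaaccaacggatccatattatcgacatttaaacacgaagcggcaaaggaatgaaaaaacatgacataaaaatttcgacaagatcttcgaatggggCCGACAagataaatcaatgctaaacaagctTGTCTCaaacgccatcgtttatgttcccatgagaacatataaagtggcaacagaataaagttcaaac
IAA19: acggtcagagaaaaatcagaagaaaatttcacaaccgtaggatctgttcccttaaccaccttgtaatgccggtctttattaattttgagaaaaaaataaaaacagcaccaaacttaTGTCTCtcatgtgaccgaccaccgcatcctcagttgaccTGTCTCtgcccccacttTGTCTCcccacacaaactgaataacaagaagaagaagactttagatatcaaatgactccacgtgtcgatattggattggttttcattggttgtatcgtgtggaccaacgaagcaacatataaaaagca
IAA1: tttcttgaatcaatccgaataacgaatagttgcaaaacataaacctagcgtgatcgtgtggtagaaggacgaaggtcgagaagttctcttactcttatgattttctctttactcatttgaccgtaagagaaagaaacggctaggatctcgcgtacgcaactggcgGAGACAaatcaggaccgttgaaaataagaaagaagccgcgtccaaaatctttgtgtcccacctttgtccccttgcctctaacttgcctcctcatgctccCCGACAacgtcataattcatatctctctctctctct
GH3.3: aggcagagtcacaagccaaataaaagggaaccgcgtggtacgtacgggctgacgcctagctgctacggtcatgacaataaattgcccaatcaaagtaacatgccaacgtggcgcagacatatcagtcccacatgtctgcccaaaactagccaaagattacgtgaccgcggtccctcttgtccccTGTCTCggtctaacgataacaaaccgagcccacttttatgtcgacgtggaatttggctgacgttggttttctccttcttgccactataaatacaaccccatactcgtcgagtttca
IAA14: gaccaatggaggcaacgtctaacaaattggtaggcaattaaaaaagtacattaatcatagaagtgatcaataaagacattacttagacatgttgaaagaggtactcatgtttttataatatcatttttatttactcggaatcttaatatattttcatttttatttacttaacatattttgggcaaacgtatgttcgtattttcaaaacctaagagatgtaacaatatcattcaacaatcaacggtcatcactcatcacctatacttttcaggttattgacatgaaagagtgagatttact
IAA28: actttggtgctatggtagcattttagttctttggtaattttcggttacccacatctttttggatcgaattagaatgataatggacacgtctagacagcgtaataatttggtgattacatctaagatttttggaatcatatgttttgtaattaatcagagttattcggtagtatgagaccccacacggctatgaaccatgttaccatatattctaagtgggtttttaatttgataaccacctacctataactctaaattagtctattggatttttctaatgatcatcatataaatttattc

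IAA5 holds 1 TGTCTC and 2 TGTCGG, IAA19 holds 3 TGTCTC, IAA1 holds 1 of each and GH3.3 holds 1 TGTCTC. Either hexamer was present before 11 of 19 auxin-induced members (57.9%), before 6 of 16 other members (37.5%) and before 17.3% of the 27443 protein-coding genes. TGTCTC, with or without TGTCGG, was present in 52.6%, 25% and 13% of those 3 sets. TGTCGG, with or without TGTCTC, was present in 15.8%, 18.8% and 4.91%. The looser TGTCNN, which contains both, was present in 89.5%, 87.5% and 80.6%. A match describes letters only, and a window without one says nothing about the binding of any factor.

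In bottoms, contact with a grafted top went with higher levels of most repressor genes. In the early window 24 of 33 members were higher in grafted than in separated bottoms, where 17.5% of all genes tested were, and 1 was lower, where 17.1% of all genes were. Their median difference was 1.22, against 0.00 over all genes tested. In the middle window 21 were higher (background 30%) and 3 lower (30.5%), and in the late window 22 higher (35.6%) and 3 lower (34.6%). The higher members belonged to both classes: early, 13 of 18 auxin-induced members and 11 of 15 others. The summed level of shoot meristem markers, given below with that of root markers, was 3.97 to 6.47 in late grafted bottoms, against 0.162 to 0.647 in late separated bottoms. Of these markers CUC3 was higher there (2.19 ± 0.12), and STM was not called (0.28 ± 0.18).

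IAA2 (AT3G23030), whose gene is expressed in vascular tissue and root tips, had the largest early difference, 4.86 ± 0.20 (SE, adjusted p = 1.3e-24). Its levels ran from 60.3 to 127 with a median of 75.7 in the 6 grafted bottoms, against 0.728 to 3.80 with a median of 1.78 in the 6 separated bottoms. IAA1, the gene of the axr5 mutant, had levels of 12.5 and 14.7 at 6 h, 16.3 and 18.6 at 12 h and 26.3 and 33.3 at 24 h in grafted bottoms, against at most 0.162 in every early separated bottom. Grafted and separated bottoms did not overlap for either gene.

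IAA19, known from hypocotyl bending, was nearly silent in separated bottoms: all 16 of their libraries were at 0.243 or less. Grafted bottoms had 4.61 and 5.34 at 6 h, 1.38 and 2.59 at 12 h, and 11.9 and 6.96 at 24 h. Each of these grafted libraries was above each separated one, already at the first time sampled. IAA17, the gene of axr3 mutants, had an early range of 9.31 to 131 in grafted bottoms, against 0.162 to 5.58 in separated bottoms (difference 3.63 ± 0.18, adjusted p = 2.1e-21). IAA7, the gene of axr2 mutants and the most abundant repressor transcript of intact plants per length, had 345 to 765 in grafted bottoms, against 38.7 to 75.8 in separated bottoms (3.44 ± 0.09, adjusted p = 1.3e-31).

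In the late window other genes had the largest differences. IAA27 reached 4.49 ± 0.13 (60.2 to 88.3 in grafted bottoms, against 1.29 to 4.37 in separated bottoms), and IAA9, a repressor with roles in leaf and vascular patterning, 3.74 ± 0.11 (401 to 508, against 11.5 to 52.8). Among the GH3 enzymes, GH3.6 had a late difference of 3.27 ± 0.15 (122 to 348 in grafted bottoms, against 12.4 to 44.3 in separated bottoms; adjusted p = 6e-24). GH3.3 was at 0.809 or less in grafted bottoms and at 0 in separated bottoms until 24 h. At 48 h it had 5.67 and 3.80 in grafted bottoms, against 0 and 0.567 in separated bottoms.

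**Figure D1:**
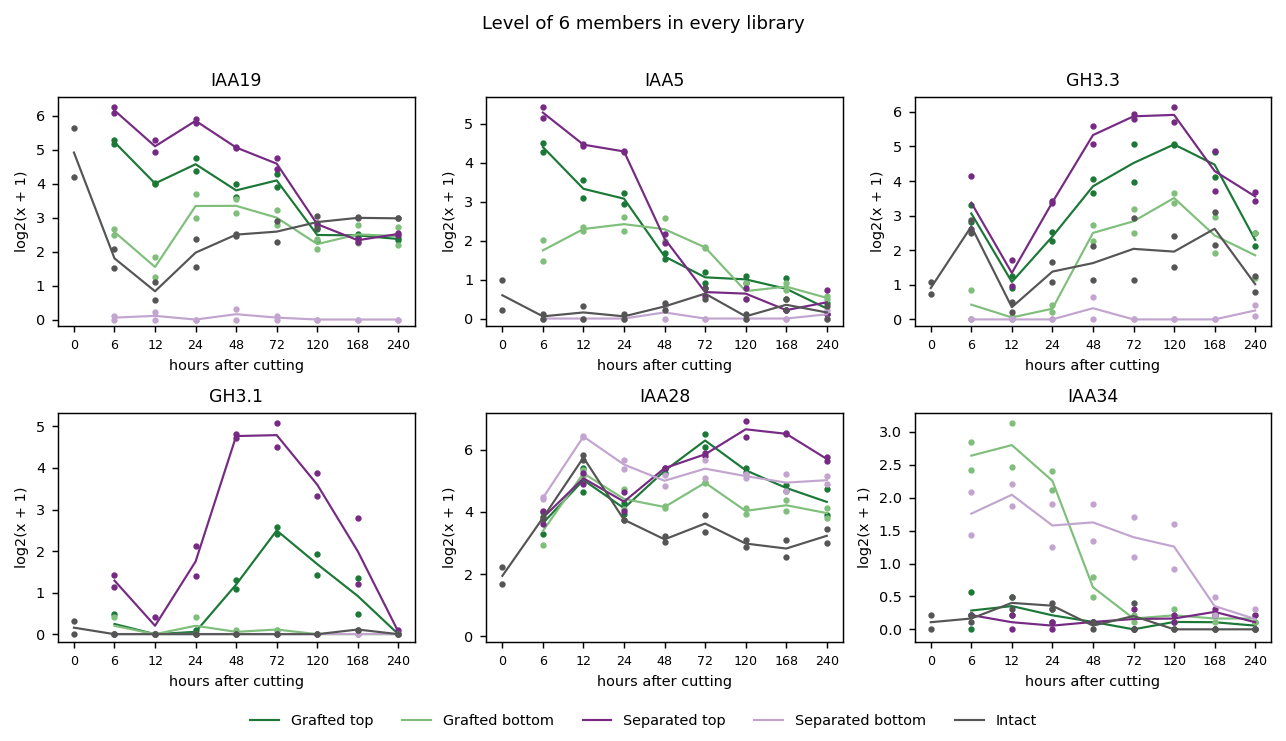
Scaled levels, as log2(level + 1), of IAA19, IAA5, GH3.3, GH3.1, IAA28 and IAA34 against hours, 1 point per library and lines through the means of 2 libraries, for the 5 conditions. IAA19 stays at or below a level of 0.243 in all 16 separated-bottom libraries while the grafted bottoms lie above them from 6 h, and IAA28 and IAA34 do not share that order.

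Not every repressor behaved this way. IAA28, which represses the steps that specify lateral root founder cells, was lower in grafted than in separated bottoms in each window: −1.11 ± 0.16 early (adjusted p = 3e-07), −0.65 ± 0.20 in the middle and −0.97 ± 0.16 late. At 12 h it had 34.3 and 39.5 in grafted bottoms, against 84.6 and 85 in separated bottoms. IAA34 (AT1G15050), 1 of the members without a full degradation motif, was higher early and lower later: 4.37 and 6.23 in grafted bottoms at 6 h, against 1.70 and 3.24 in separated bottoms, but 0.405 and 0.728 at 48 h, against 1.54 and 2.75. IAA18 crossed in the same direction, with 31.1 and 37.7 in grafted bottoms at 12 h, against 8.34 and 9.39 in separated bottoms, and 9.06 to 15.9 in the late window, against 24.0 to 31.1 (−1.10 ± 0.11, adjusted p = 6.5e-12). IAA26 was lower in grafted bottoms in the middle window (−0.53 ± 0.12), with 55.4 to 82.1, against 84.2 to 122.

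The remaining members filled the range between these patterns. IAA4, IAA13, IAA11 and IAA29, all of the auxin-induced class, had early differences between grafted and separated bottoms of 2.49 ± 0.13, 1.92 ± 0.11, 2.24 ± 0.19 and 1.58 ± 0.17. IAA16, IAA8, IAA10 and IAA12 of the other class had 1.76 ± 0.08, 0.80 ± 0.09, 0.72 ± 0.15 and 0.52 ± 0.10. IAA12 is the repressor partner of ARF5 in the embryo. Among members without a full degradation motif, IAA30 was higher (0.79 ± 0.19), with 0.0809 to 2.83 in early grafted bottoms and 0 in all early separated bottoms. IAA20 and IAA33 were listed at 0 in all early grafted and separated bottoms, and IAA31 and IAA32 were at 0.486 or less there. In separated tops IAA20 reached 8.42 and IAA30 11.1 at 24 h.

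The time at which a member first passed the test, with 2 libraries a side, was early for most. At 6 h, 16 of 33 members were higher in grafted than in separated bottoms, where 4.89% of all genes were; at 12 h it was 23 (background 11.7%) and at 24 h 23 (13.5%). The counts for 48, 72, 120, 168 and 240 h were 22 (21.2%), 20 (27.9%), 21 (30.6%), 21 (26.9%) and 19 (28.1%), so the background grew after 24 h while the members' count did not. In the auxin-induced class 8 of 18 members were first called at 6 h (IAA1, IAA2, IAA3, IAA4, IAA5, IAA11, IAA13 and IAA19), and in the other class also 8, of 15 (IAA7, IAA8, IAA9, IAA16, IAA17, IAA18, IAA27 and IAA34). At 12 h followed IAA14, IAA29, GH3.5 and GH3.6, and IAA10, IAA12 and IAA26. IAA30 followed at 24 h, GH3.3 at 48 h and IAA31 at 120 h. No GH3 gene was first called at 6 h. IAA6, IAA20, GH3.1, GH3.2, IAA28, IAA32 and IAA33 passed the test as higher at no time; the first 4 of these are of the auxin-induced class.

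**Figure D2:**
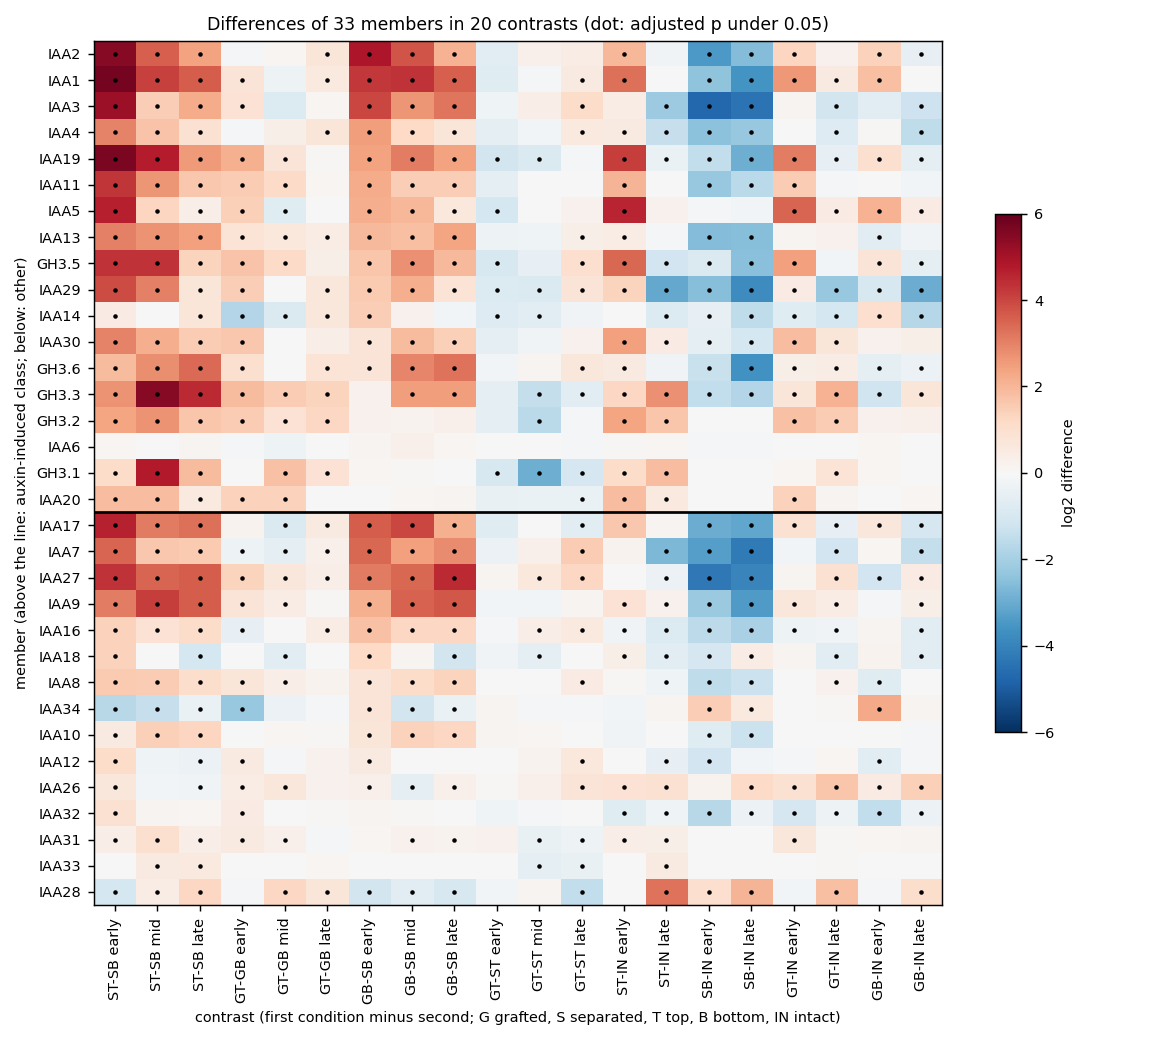
Log2 differences of the 33 tested members (rows, auxin-induced class above the other class) in 20 comparisons (columns), coloured from lower to higher, with a dot where the adjusted p passed 0.05. Separated bottoms stand lower than separated tops, grafted bottoms and intact plants in most rows, and IAA28 and IAA34 are among the exceptions.

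When tops and bottoms were left apart, the members separated by side. Early, 29 of 33 were higher in separated tops than in separated bottoms (background 40.4%) and 2 were lower (31.6%); in the middle window 26 were higher (47.2%) and 1 lower (29.4%), and late 27 were higher (49.4%) and 4 lower (30.2%). IAA33 reached a level of 1 in 3 libraries, all of them separated tops, and so passed the filter only through that condition. Its calls in comparisons with separated tops, here at 72, 120 and 168 h, therefore carry no weight. The early median difference was 2.34, against 0.08 over all genes, and by class 3.01 for the auxin-induced members and 1.09 for the others. IAA1 led with 5.73 ± 0.21 (46.2 to 73.1 in separated tops, against 0 to 0.162 in separated bottoms; adjusted p = 6.6e-28), followed by IAA19 with 5.64 ± 0.16 (29.3 to 74.8, against 0 to 0.162). IAA5, an auxin-induced repressor, had 34.5 and 41.9 in separated tops at 6 h and was listed at 0 in all 6 early separated bottoms. IAA34 and IAA28 were the 2 lower members. IAA28 had 11.2 to 37.4 in separated tops, against 20.4 to 85 in separated bottoms (−1.06 ± 0.16), and these ranges overlapped.

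All 5 tested GH3 genes were higher in separated tops in each of the 3 windows. GH3.3 had a middle-window difference of 5.44 ± 0.33 (adjusted p = 4.6e-20): 46.9 and 32.7 at 48 h and 60.4 and 54.8 at 72 h in separated tops, against 0, 0.567, 0 and 0 in separated bottoms. GH3.1 (AT2G14960) was listed at 0 in all 16 separated bottoms and had 27.4 and 25.2 at 48 h and 21.8 and 32.6 at 72 h in separated tops. GH3.5 had 221 to 507 in separated tops in that window, against 9.95 to 22.9 in separated bottoms (4.36 ± 0.28). The late exceptions among the repressors were IAA12, IAA18, IAA26 and IAA34. The call of IAA26 was marginal (−0.22 ± 0.10, adjusted p = 0.046): it missed the threshold with the replicate block within plants (adjusted p = 0.052), and its difference was 0.11 under quantile normalisation. IAA18 had the largest of these differences, −1.08 ± 0.11, with 9.63 to 18.2 in separated tops, against 24.0 to 31.1 in separated bottoms.

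In grafted plants the same side difference was smaller. Early, 20 members were higher in grafted tops than in grafted bottoms (background 37.8%) and 4 lower (27.0%); the middle window had 14 higher (27.6%) and 5 lower (19.5%), and the late window 15 higher (12.4%) and 0 lower (11.2%; also 0 at an unadjusted p under 0.05, with limma). These counts are from the fit without a replicate block; with same-numbered tops and bottoms paired, 20 were higher and 4 lower early, 15 and 6 in the middle window, and 16 and 0 late. The change in the top-to-bottom difference on grafting was tested as an interaction. It was below 0 for 25 of 33 members early (background 11.6%; 24 with the block, where IAA10 and IAA32 missed the threshold at adjusted p = 0.057 and 0.051) and above 0 for 1 (10.4%), and in the middle window below 0 for 26 (32.3%) and above 0 for 3 (23.1%). By class, 14 of 18 auxin-induced and 11 of 15 other members were below 0 early. IAA2 had the largest early interaction, −5.56 ± 0.28 (adjusted p = 1.6e-20), followed by IAA1 at −4.94 ± 0.29. IAA28 was the 1 member above 0, at 0.97 ± 0.23 (adjusted p = 0.0015). The separated pair and the grafted pair do not share libraries, but the interaction draws on the same libraries as the comparisons of bottoms and of tops.

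Among the repressors IAA19 kept a top-high order in grafts early: 34.8 and 37.8 in grafted tops at 6 h, against 4.61 and 5.34 in grafted bottoms (early difference 2.11 ± 0.16, adjusted p = 2.6e-15). Later, at single times, IAA19 was called higher in grafted tops at 72 h (1.09 ± 0.29) but not at 48, 120, 168 or 240 h. IAA14, the gene of the solitary-root mutant without lateral roots, had the opposite order early. It stood at 12.2 and 13.9 in grafted tops at 24 h, against 105 and 104 in grafted bottoms, and its early difference was −1.76 ± 0.15 (adjusted p = 6e-14). The peak belonged to the grafted bottoms at 24 and 48 h: at 24 h separated tops had 22.0 and 21.4, separated bottoms 42.6 and 26.1 and intact plants 30.4 and 36.0. IAA34 was likewise bottom-high, with a mean of 0.229 in early grafted tops, against 5.08 in early grafted bottoms (−2.28). GH3.3 stayed top-high in all windows (1.92 ± 0.27 early, 1.52 ± 0.33 in the middle and 1.35 ± 0.27 late), with 32.9 and 31.7 in grafted tops at 120 h, against 11.5 and 9.39 in grafted bottoms. In the middle window IAA17 (−0.87 ± 0.23), IAA14 (−0.85 ± 0.19), IAA5 (−0.73), IAA18 (−0.66 ± 0.14) and IAA7 (−0.56 ± 0.11) were lower in grafted tops, and IAA28 was higher, with 37.1 to 89.2, against 16.3 to 29.9 (1.26 ± 0.20). IAA7 was slightly bottom-high early too (−0.28 ± 0.09), and under quantile normalisation this difference was 0.02.

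On the top side, grafting went with lower levels of a few auxin-induced members. In the early window 6 of 33 members were lower in grafted than in separated tops, where 0.313% of all genes were, and 0 were higher, where 0.0337% were. At an unadjusted p under 0.05, 17 were lower and 1 higher; with a pseudocount of 5, 10 were lower and 0 higher. All 6 are of the auxin-induced class: IAA19 (−1.10 ± 0.16, adjusted p = 3.6e-05), IAA5 (−1.08 ± 0.13, adjusted p = 1.2e-07), GH3.1 (−0.98 ± 0.15), GH3.5 (−0.97 ± 0.23), IAA29 (−0.83 ± 0.17) and IAA14 (−0.77 ± 0.15). IAA5 had 21.9 and 18.5 at 6 h, 7.61 and 10.8 at 12 h and 8.34 and 6.64 at 24 h in grafted tops, against 34.5 and 41.9, 20.6 and 21.5, and 18.6 and 18.5 in separated tops at those times. Grafted and separated tops did not overlap at any of the 3 times for IAA5, nor for IAA19, which had 34.8 and 37.8 at 6 h in grafted tops, against 65.9 and 74.8 in separated tops. The calls of GH3.5, IAA29 and IAA14 depended on single libraries. The adjusted p of GH3.5 was 0.039, that of IAA29 0.0085 and that of IAA14 0.0042; GH3.5 lost its call without any 1 of 11 of the 12 libraries (highest adjusted p = 0.22), IAA29 without any 1 of 4 (0.05 to 0.077) and IAA14 without the first grafted top library of 6 h (0.061).

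The middle window showed GH3.1 most clearly. It had 1.13 and 1.46 at 48 h and 4.29 and 5.02 at 72 h in grafted tops, against 27.4, 25.2, 21.8 and 32.6 in separated tops (−2.93 ± 0.18). GH3.3 was lower as well (11.5 to 32.5, against 32.7 to 60.4; −1.41 ± 0.33, adjusted p = 0.00096), as was GH3.2 (−1.62). In all, 9 members were lower (background 14.3%) and 2 higher (8.29%), the 2 being IAA27 (0.63 ± 0.17) and IAA16 (0.38 ± 0.10). IAA33, which passed the filter only through separated tops, was called lower at 72 h, and that call carries no weight.

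Late, more members were higher than lower: 13 were higher in grafted than in separated tops (19.5%) and 7 lower (29.8%). The same limit holds for IAA33, called lower at 120 h. IAA7 had 238 to 345 in grafted tops, against 74.5 to 143 in separated tops (1.53 ± 0.09, adjusted p = 7.8e-19), and IAA27 had 95.7 to 113, against 15.9 to 90.1 (1.24 ± 0.13). IAA28 was lower, with 13.8 to 41.4 in grafted tops, against 49.0 to 120 in separated tops (−1.48 ± 0.16, adjusted p = 1.2e-10). At 120 h IAA28 stood at 41.4 and 37.6 in grafted tops, against 83 and 120 in separated tops.

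Each of the 4 cut conditions was also set against uncut plants, and these comparisons share the intact libraries. In separated tops 20 members were higher early (background 32%) and 2 lower (30.8%); late, 10 were higher (44.7%) and 13 lower (26.7%). By class the early rises were 15 of 18 auxin-induced members and 5 of 15 others. IAA5 had an early mean of 26 in separated tops, against 0.0674 in intact plants (4.59), and IAA19 had 29.3 to 74.8, against 0.486 to 4.21 (4.17 ± 0.16). By the late window IAA7 had fallen to 74.5 to 143 in separated tops, against 602 to 738 in intact plants (−2.67 ± 0.09), while IAA28 was higher, at 49.0 to 120, against 4.86 to 9.95 (3.28 ± 0.16, adjusted p = 4.6e-23). IAA29, a repressor gene known from shade responses, was lower late, at 0.0809 to 1.46, against 7.36 to 21.0 (−3.05 ± 0.17).

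Separated bottoms were lower than intact plants in most members: early 2 higher (24.3%) and 23 lower (30.4%), late 4 higher (32.4%) and 21 lower (31.2%). IAA3, the gene of shy2 mutants, had 0 to 1.13 early in separated bottoms, against 18.4 to 64.2 in intact plants (−4.69 ± 0.31), and IAA27 had 2.18 to 5.26, against 59.4 to 115 (−4.28 ± 0.13). The 4 late risers were IAA28 (2.03 ± 0.16), IAA26 (1.13 ± 0.10), IAA34 (0.59) and IAA18 (0.47 ± 0.11), all of the class that is not auxin-induced.

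Grafted plants were set against the same intact libraries. Grafted tops had 16 members higher (31.7%) and 3 lower (30.8%) early, and 12 higher (30.6%) and 10 lower (24.7%) late. Grafted bottoms had 9 higher (20.4%) and 8 lower (28.4%) early, and 6 higher (25.4%) and 13 lower (28.2%) late. The early counts of grafted bottoms and the late counts of grafted tops lie near the shares of all genes. IAA5 was higher early in both parts of grafts (3.51 in tops and 2.07 in bottoms). IAA34 had a mean of 5.08 in early grafted bottoms, against 0.243 in intact plants (2.26). IAA26, whose protein binds a viral replicase, was higher late in all 4 cut conditions, with 113 to 159 in grafted tops, 91.9 to 141 in grafted bottoms, 36.8 to 137 in separated tops and 65.1 to 114 in separated bottoms, against 39.8 to 54.1 in intact plants. IAA29 and IAA7 were lower late in all 4; IAA7 had 238 to 345 in grafted tops and 190 to 283 in grafted bottoms.

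In 3 places 2 repressor genes lie beside each other and point away from each other, and neighbours could differ in course. IAA1 and IAA14 are 10732 bases apart on chromosome 4, IAA2 and IAA7 12510 bases apart on chromosome 3, and IAA3 and IAA17 6388 bases apart on chromosome 1, each with 1 annotated gene between. In separated bottoms at 72 h IAA1 was at 0.0809 and 0, whereas its neighbour IAA14 was at 39.2 and 45.1; intact plants then had 7.20 and 15.7 of IAA1 and 50.7 and 52.9 of IAA14. Levels of different genes on this scale are not corrected for length, so the comparison is of each gene with its own intact level. IAA3 and IAA17 were both higher in early grafted than separated bottoms, but between grafted and separated tops the late difference was 1.10 ± 0.31 for IAA3 and −0.65 ± 0.18 for IAA17.

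**Figure D3:**
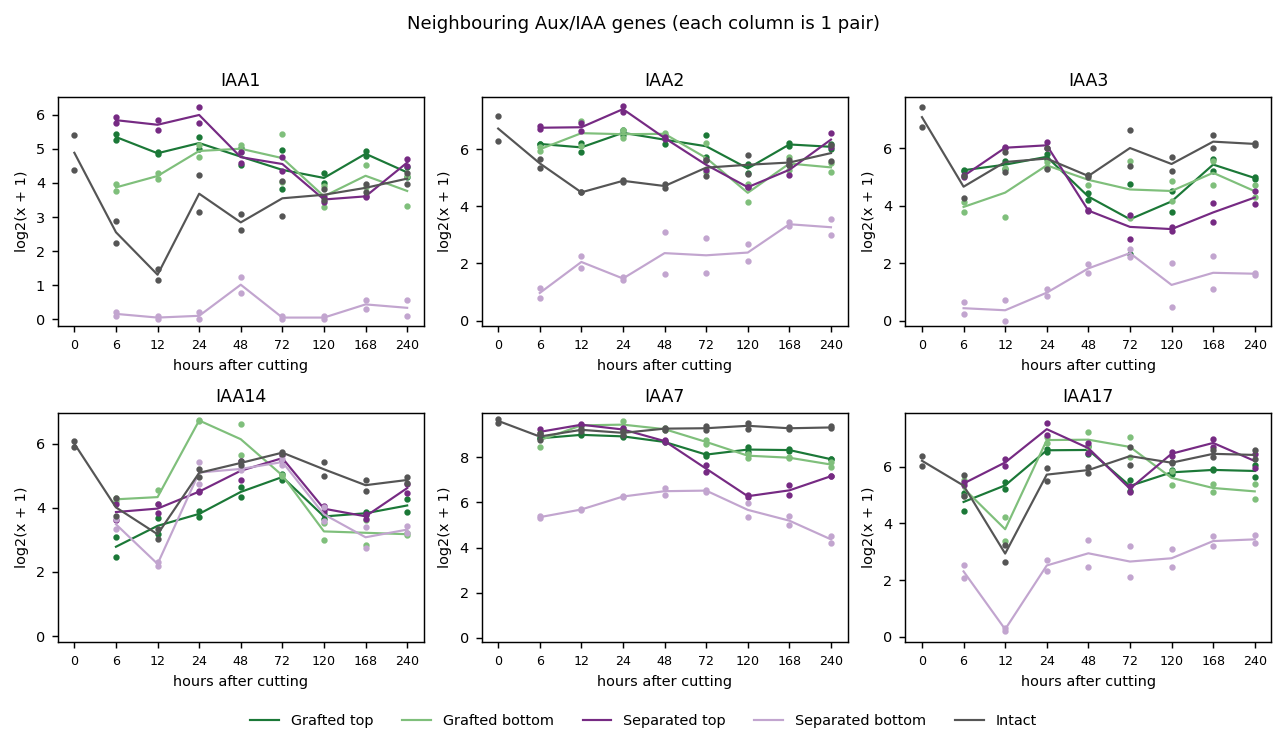
Log2(level + 1) of 3 neighbouring pairs of Aux/IAA genes, 1 pair per column, against hours in the 5 conditions, with 1 point per library. IAA1 is near 0 in separated bottoms where its neighbour IAA14 reaches 45.1 at 72 h.

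Summed per gene length, the mRNA of the whole repressor family was lowest in separated bottoms. The early sum over 29 Aux/IAA genes was 2275 ± 207 in grafted tops, 2219 ± 538 in grafted bottoms, 2915 ± 356 in separated tops and 514 ± 123 in separated bottoms, against 1991 ± 143 in intact plants (SD over n = 6 libraries of 3 times, on the per-length scale). Late it ran from 2103 to 2418, 1651 to 1898, 1284 to 2148 and 468 to 623 in the same order, against 2403 to 2625. All 16 separated-bottom libraries lay below every library of the other conditions in these windows, at 743 or less against 1284 or more. The makeup shifted too. IAA7 took a median of 12.1% of the family's sum in separated bottoms, against 30.7% in intact plants, while IAA26 took 13.8%, against 1.69%, and IAA28 10.7%, against 0.739%. The auxin-induced class made up 32.6% of the family's sum in early separated tops and 10.7% in early separated bottoms, against 18.3% in intact plants.

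For the 6 GH3 genes the early per-length sum was 171 ± 62.9 in grafted tops, 78.5 ± 50.6 in grafted bottoms, 239 ± 88.1 in separated tops and 43.7 ± 32.4 in separated bottoms, against 91.1 ± 43.4 in intact plants (SD, n = 6). In the middle window it was 214 ± 48.8, 140 ± 40.6, 270 ± 67.6 and 17.8 ± 3.85, against 161 ± 34.8 (SD, n = 4). GH3.6 and GH3.5 supplied most of it, with medians of 52.8% to 71.5% and 27.9% to 37.6% across conditions. GH3.3 and GH3.1, the members with the largest middle-window differences between separated tops and bottoms, reached at most 14.5% and 5.76% of the sum in any separated top.

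**Figure D4:**
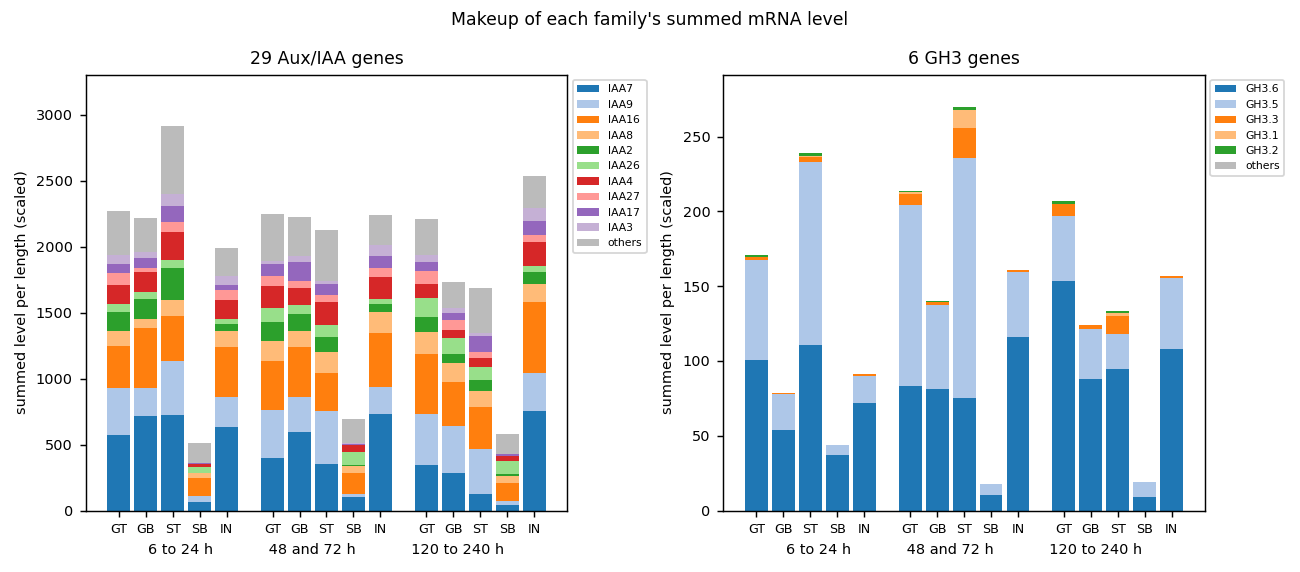
Summed per-length levels (scaled) of the 29 Aux/IAA genes (left) and 6 GH3 genes (right), stacked by gene, as means over the libraries of each condition in the early, middle and late windows. GT and GB are grafted tops and bottoms, ST and SB separated tops and bottoms, and IN intact plants; the early Aux/IAA bar of separated bottoms stands at 514, against 1991 in intact plants.

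To compare the members with other auxin-responsive genes, each was set against an index of 11 such genes outside both families (HAT2, LBD16, LBD18, LBD29, GATA23, ARF19, PIN3, PILS5, PID, ACS4 and LRP1), of which LBD29 did not pass the filter on low values. The index is the mean of their standardised log2 levels in each of the 41 groups. It was highest in separated tops at 72 h (1.35), followed there by grafted tops (1.04), ran from −0.897 to −0.612 in separated bottoms and from −0.64 to −0.24 in intact plants. In grafted bottoms it was −0.527 at 6 h and −0.253 at 12 h; by 24 h it had reached −0.018, and by 48 h 0.208. Auxin itself was not measured. The summed root markers, given below, also rose in tops in the middle window. They ran from 268 to 361 in grafted and 204 to 341 in separated tops, against 41.7 to 61.3 and 45.3 to 56.4 early. The part of root formation in the index was not tested.

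Across the 41 groups, Pearson's r with the index had a median of 0.666 over the 18 auxin-induced members and 0.444 over the 15 others, against 0.173 over 20723 other genes tested (quartiles −0.334 and 0.507). The groups share the effects of cutting and of time, so r is a description here. An r of at least 0.7 was found for 9 of 18 auxin-induced members (50%), 2 of 15 others (13.3%) and 7.71% of other genes. GH3.3 followed most closely (0.872), followed by IAA30 (0.811), IAA11 (0.776) and GH3.2 (0.757); GH3.5 lay just inside, at 0.7 after rounding, and IAA10 was the nearest outside (0.648). IAA9 (0.711) and IAA31 (0.702) were the followers from the other class. IAA31 was near the detection limit, with a level of 1 or more in 4 libraries and at most 1.38, and its Spearman's rho was 0.645. Some members of the auxin-induced class did not follow over the 41 groups: IAA14 had 0.092, IAA29 0.328, IAA3 0.32, IAA4 0.45 and IAA5 0.457. Without the intact groups these had 0.229, 0.671, 0.619, 0.713 and 0.377. IAA6, counted among the 18, had −0.021, but it passed the filter on low values only through the 2 libraries of 0 h. IAA18 (−0.278) and IAA34 (−0.461) ran against the index. Over the 32 groups without intact plants, 18 of 33 members (54.5%) in place of 11 reached 0.7, and so did 12.4% of other genes in place of 7.71%. IAA8 (0.814), IAA13 (0.812) and IAA27 (0.769) were among the 18, and IAA31 (0.663) was not.

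**Figure D5:**
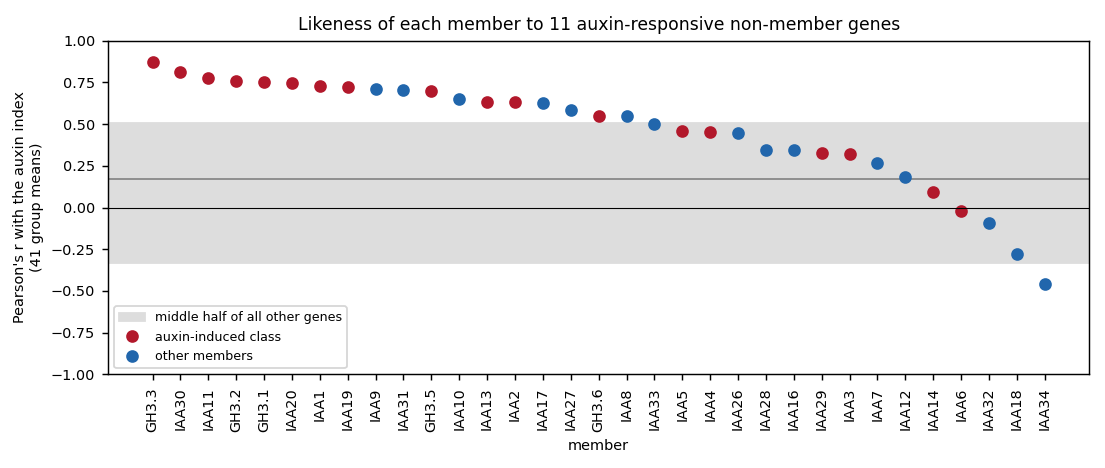
Pearson's r of each tested member's log2 level with the index of 11 auxin-responsive genes over 41 groups, coloured by class, with a band for the quartiles of the other genes tested (−0.334 to 0.507). GH3.3 stands at the top (0.872) and IAA34 at the bottom (−0.461).

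Among themselves, pairs of auxin-induced members had a median r of 0.576 over 153 pairs, pairs of the other class 0.124 over 105, and mixed pairs 0.286 over 270. The genes outside both families whose group means were most like those of IAA19 over the 41 groups were AT5G66080 (r = 0.904), AT1G80170 (0.895) and AT3G14890 (0.876). For GH3.3 they were GH9B13 (0.905), scpl20 (0.900) and AT4G14650 (0.893), and for IAA28 AT5G10980 (0.811), AT4G19700 (0.802) and MYB112 (0.78). By group mean, IAA19 was highest in separated tops at 6 h (70.3) and 24 h (56.7) and IAA5 in separated tops at 6 h (38.2). IAA28 was highest in separated tops at 120 h (101.5), as was GH3.3 (59.9). Neighbours in these orders overlapped in their 2 libraries for 33 of 40 steps for IAA19, 34 for IAA5, 35 for IAA28 and 38 for GH3.3, so only wide gaps in the order exceed the spread.

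Another 2 comparisons were added after the members' levels had been seen. The first set intact plants at 0 h (2 libraries) against intact plants from 24 to 240 h (12 libraries): 10 of 33 members were higher at 0 h (20.7%) and 6 lower (21.0%). IAA6 is among the 10 and passed the filter on low values only through the 2 libraries of 0 h; over the other 32 members, 9 were higher and 6 lower. IAA19 had 17.3 and 48.6 at 0 h, against 1.94 to 7.20 later (2.27 ± 0.22, adjusted p = 5.8e-12), and IAA8 330 and 366, against 131 to 230. IAA6 had 2.35 and 17.9 at 0 h, against at most 0.647 in every other library. The 2 libraries at 0 h differed widely for IAA19, IAA6 and IAA1, and without the second of them 6 members, IAA6 included, were higher and 4 lower.

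The second set 12 h (10 libraries) against 6 and 24 h (20 libraries) over the 5 conditions. At 12 h 6 members were higher (29%) and 15 lower (25.2%). IAA28 rose by 1.38 ± 0.11 (adjusted p = 5.1e-15), also in intact plants, where it had 50.1 and 55.3 at 12 h, against 13.2 and 12.8 at 6 h and 12.4 and 12.5 at 24 h. GH3.5 was lower (−1.95 ± 0.16, adjusted p = 6.1e-15), with 3.64 and 2.91 in intact plants at 12 h, against 27.8 and 28.6 at 6 h and 99.7 and 102 at 24 h. The reference is the mean of 6 and 24 h, so a steady rise also counts as lower at 12 h. In tops GH3.5 rose throughout: its means at 6, 12 and 24 h were 70.85, 93.3 and 326 in grafted tops. They were 146.5, 206.5 and 559 in separated tops. In grafted and separated bottoms its mean was lowest at 12 h. Of the 5 tested GH3 genes, 0 were higher and 4 lower at 12 h with limma, as at an unadjusted p under 0.05. IAA17 (−1.51 ± 0.12), GH3.6 (−1.39 ± 0.10), GH3.3 (−1.14 ± 0.18) and IAA14 (−0.93 ± 0.10) were lower. Of these, IAA17 and IAA14 also rose from 6 to 12 to 24 h in tops. IAA17 had means of 26.6, 39.6 and 94.5 in grafted and 41.4, 70.1 and 160 in separated tops. IAA14 had 6.07, 9.99 and 13.1 in grafted and 13.8, 14.8 and 21.7 in separated tops. Both were lowest at 12 h in separated bottoms and intact plants. GH3.6 was lowest at 12 h in all 5 conditions. Plants were grown with 8 h of light a day, and no clock time of harvest is given in the sources used here.

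Other auxin pathway genes were compared in bottoms by lists, whose counts stand against the shares of all genes tested: 17.5% higher and 17.1% lower early, 30% and 30.5% in the middle window, and 35.6% and 34.6% late. With 3 to 10 genes a list, several of these counts lie near those shares. Of 6 receptor genes, 2 were higher and 3 lower early in grafted than in separated bottoms. AFB1 was higher (7.12 to 29.2, against 1.94 to 9.47; 1.36 ± 0.18) and TIR1 lower (99.9 to 212, against 134 to 247; −0.26 ± 0.07). Of 5 activating ARF genes, the partners of these repressors, 1 was higher and 1 lower early, whereas all 5 were higher in the middle and late windows. ARF5, which acts in vascular development, had 82.4 to 151 in grafted bottoms in the middle window, against 24.4 to 45.0 in separated bottoms (1.82 ± 0.13, adjusted p = 3e-16). Of 10 repressing ARF genes, 3 were higher and 1 lower early; ARF10 had 30.1 to 112, against 4.94 to 13.3 (2.58 ± 0.22).

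Of 8 auxin synthesis genes, 1 was higher and 4 lower in each window. YUC8, which makes auxin from indole-3-pyruvate, had 0 to 1.13 in early grafted bottoms, against 1.86 to 14.6 in separated bottoms (−2.23 ± 0.20, adjusted p = 4.9e-13). Of 6 other auxin-inactivating genes, 1 was higher and 1 lower early and 4 higher and 1 lower late. Late, IAMT1, an auxin methyltransferase, had 1.46 to 4.13 in grafted bottoms and 0 in each of the 6 libraries of separated bottoms (1.79 ± 0.19). Of 3 genes that release auxin from conjugates, 0 were higher and 1 lower early and 3 higher late, and of 3 GH3 genes with other substrates 1 was higher and 1 lower early. Between grafted and separated tops in the early window, none of the genes in these 7 lists passed the test with limma, at 0 of 41 genes, and at an unadjusted p under 0.05 1 was higher and 3 lower. Of all genes tested, 0.0337% were higher and 0.313% lower there, so 0 of 41 lies near those shares. Of the 10 tested index genes 4 were lower. Among them was ACS4, which was near the detection limit (0 to 0.243, against 0.647 to 2.59, −1.08 ± 0.10).

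Markers of root and shoot meristem tissue were summed in the same libraries. The summed level of 10 root markers ran in the early window from 41.7 to 61.3 in grafted tops, 45.1 to 97.8 in grafted bottoms, 45.3 to 56.4 in separated tops and 62.4 to 114 in separated bottoms, against 65.0 to 88.0 in intact plants. In the middle window it was 268 to 361, 143 to 418, 204 to 341 and 77.0 to 113, against 76.4 to 183, and in the late window 50.5 to 115, 40.9 to 308, 22.4 to 342 and 70.6 to 115, against 222 to 422. EXPA7 was at 0 in all grafted and separated bottoms and intact plants in each window. WOX5 and PLT1 were at 0 in all separated bottoms and intact plants in each window. In late intact plants, where the sum was 222 to 422, 5 of the 10 were at 0 in all libraries (PLT1, PLT2, WOX5, COBL9 and EXPA7). The sum over 4 shoot meristem markers was 5.99 to 19.1 in early grafted tops and 4.61 to 14.7 in separated tops, 0.324 to 1.05 in grafted bottoms and 0.243 to 0.809 in separated bottoms, against 1.46 to 8.74 in intact plants. In the middle window it was 8.74 to 14.3 in grafted tops and 5.83 to 14.4 in separated tops, 1.13 to 3.08 in grafted bottoms and 0.162 to 1.13 in separated bottoms, against 2.99 to 5.34 in intact plants. Late it was 9.14 to 15.6 in grafted tops and 4.37 to 6.88 in separated tops, 3.97 to 6.47 in grafted bottoms and 0.162 to 0.647 in separated bottoms, against 3.08 to 6.80 in intact plants. CUC3, a gene of the boundary around the shoot meristem, was higher in grafted than in separated bottoms in the middle window (0.809 to 2.43, against 0 to 0.162; 1.22 ± 0.15, adjusted p = 1.1e-09) and late (a mean of 4.34 ± 0.884, SD, against 0.162 ± 0.135; difference 2.19 ± 0.12, adjusted p = 4.3e-21). STM was not called between grafted and separated bottoms in any window (0.095 ± 0.178 early, −0.006 ± 0.218 in the middle and 0.28 ± 0.18 late). CUC1 and CUC2 were at 0 in all early grafted and separated bottoms. The part of such tissue in the members' differences was not tested.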

How the data were processed

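RNA-seq libraries of hypocotyl tissue were stranded poly(A) preparations, per the labels' protocols; libraries could not be assigned to sequencing lanes. Software and genome were cutadapt 1.8.1, Bowtie2 and TAIR10, per the submitters' processing notes. The sources used here do not give the counter, annotation, scaling or strand setting, so reads shared by similar family members or antisense genes are uncertain. Both deposited tables hold a score: values normalised by the authors to the library, and in 1 table to gene length too, then rounded. Members and gene lists were chosen with earlier results of these data known. 1 auxin-responsive gene is not reported here and was left out of the auxin index.

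The per-library values were multiplied by 1 constant (level), and genes at 1 or more in at least 2 libraries were kept: 20766 genes and 33 members. Low-value steps gave an estimated depth of 7.57 to 20.2 M (1e6) reads for 75 of 82 libraries. The median was lowest in separated bottoms, at 10.3 M, against 12.6 to 15.5 M in the other conditions. A level of 0 in separated bottoms therefore rests on fewer reads. Log2(level + 1) was fitted with limma 3.58.1 (R 4.3.3; 1 mean per group, trended eBayes, 41 residual degrees of freedom), with Benjamini-Hochberg adjustment per comparison. The p-values measure the spread between these libraries. The fit was tested on simulated data. Replicates correlated at 0.971 to 0.993. Same-numbered grafted tops and bottoms deviated together at all 8 times (r = 0.148 to 0.506), so these numbers were taken as paired; separated tops and bottoms did so at 6 of 8 times above 0.1 (0.0268 to 0.263). Conditions that share no cut plant did so too. Grafted and separated tops were above 0.1 at 6 of 8 times (−0.0142 to 0.494). Grafted bottoms and intact plants were at 5 of 8 (−0.063 to 0.357). The source of this shared deviation was not tested. The comparisons given are from the fit without a replicate block, and blocked values stand beside calls that change. Named members were, per comparison and direction, the 5 largest called differences among members with a mean level of at least 5, plus IAA19, IAA5, GH3.3, IAA28 and the neighbouring pairs, which were followed throughout, and up to 3 genes of each pathway list; others that are named were chosen after their values were seen. Gene starts and sequences are from the TAIR10.1 reference, which matched 26719 identifiers and all 35 members. Alternatives tried were other pseudocounts, filters and scalings, the per-length table, replicate blocks and leaving out each library.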

Additional observations from a re-analysis of the deposited data

Results flagged for a closer look

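The top-to-bottom difference was not the same in grafted as in separated plants, by the limma test of the interaction (grafted difference minus separated difference, on the log2(level + 1) scale). Early, 25 members were below 0 (11.6% of all genes tested) and 1 above (10.4%). In the middle window 26 were below (32.3%) and 3 above (23.1%). With the replicate block within plants, IAA10 and IAA32 missed the threshold early. The early values below 0 were −5.56 for IAA2, −4.94 for IAA1, −4.36 for IAA17, −4.29 for IAA3, −3.78 for IAA7, −3.53 for IAA19, −3.23 for IAA5 and −2.27 for IAA14, and the value above 0 was 0.97 for IAA28.

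In the middle window IAA1 stood at −4.40, IAA17 at −4.00, IAA19 at −3.94, GH3.3 at −3.92, IAA9 at −3.70, IAA2 at −3.50, IAA3 at −2.28, IAA7 at −2.16, IAA5 at −2.02 and IAA14 at −0.88. IAA26 (0.84) and IAA28 (0.83) were above 0 there. IAA28, which is not of the auxin-induced class, was above 0 in both windows.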

How the results depend on the processing

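Of 522 called differences of single members, 14 missed the threshold with a pseudocount of 0.25, 23 with 5, 13 with no filter on low values, 11 with median-of-ratios scaling and 7 in the per-length table; none of 479 did with a stricter filter. Quantile normalisation lost 40 and turned the direction of 6, for which the cause was not tested: IAA5 (−0.026), between separated tops and bottoms late, IAA26 (0.11), in the same comparison, IAA7 (0.020), between grafted tops and bottoms early, IAA30 (−0.22) and IAA31 (−0.0081), between separated tops and intact plants late, and IAA16 (0.043), between grafted tops and intact plants late. Early counts between grafted and separated tops went to 10, all lower, with a pseudocount of 5. The count of members at an r of at least 0.7 with the auxin index was 18 without the intact groups (12.4% of other genes), against 11 (7.71%), and IAA31 was not among the 18 (0.663).

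Leaving out 1 library at a time lost 270 of 6778 calls. Counts between grafted and separated tops then ran from 4 to 6 early, 10 to 13 in the middle and 17 to 20 late. Between grafted and separated bottoms they ran from 24 to 25, 23 to 25 and 23 to 25. The count for intact plants at 0 h ran from 10 to 16 and was 10 without the second library of 0 h. With a replicate block within plants, the count between grafted tops and bottoms was 24 early, 21 in the middle and 16 late; the block lost 3 of 202 calls, IAA26 between separated tops and bottoms late (adjusted p = 0.052), and the early interactions of IAA10 (0.057) and IAA32 (0.051). A block over all 5 conditions lost 0 of 522 and gave 9 lower members between grafted and separated tops early.

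Levels near 1 stand for 5.78 to 22.0 reads, which limits IAA6, IAA20, IAA31, IAA33 and GH3.2.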

Other observations

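IAA6 was above a level of 1 in both intact libraries of 0 h (2.35 and 17.9) and at 0 in 55 of 82 libraries. IAA33 was at 0 in 68 libraries and reached 2.27 in 1 separated top of 120 h, and IAA32 peaked at 8.66 in an intact library of 12 h. GH3.2 reached 12.6 and 1.86 in the 2 grafted tops of 168 h, so its highest library had no match in the other library of its group.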
